A study of Mus musculus with 36 samples.

Results

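Accessible chromatin was examined around 7 genes that hold hematopoietic stem and progenitor cells in the bone marrow or bring them back to it: Cxcr4, Itga4, Itgb1, Itga6, Cd44, Vcam1 and Selplg. Peaks of all 36 ATAC-seq libraries of the study were merged where they overlapped by 1 bp or more, which gave 105005 regions, and a region was given to a gene when its centre lay nearest to a transcription start site (TSS) of that gene among all protein-coding genes. This rule, which used no comparison between groups, kept 153 of the 105005 regions, and the 7 genes stand among 17841 genes that received a region. The nearest gene need not be the gene that a region controls. All libraries came from C57BL/6 mice with no further genotype or treatment in the labels. Young mice were 10 weeks old and aged mice 20 months old, and each library was made from 20000 sorted bone marrow cells. Hematopoietic stem cells (HSCs) were sorted as Lin-, Sca-1+ and c-kit+ cells without the alpha chain of the IL-7 receptor (IL-7Ra). They were CD150+ but negative for CD34, CD48 and Flt3. Of the multipotent progenitors (MPPs), MPP1s were sorted as HSCs but CD34+. MPP2s were CD34+ and positive for both CD150 and CD48. MPP3s were CD34+, CD48+ and CD150-, and MPP4s were as MPP3s but Flt3+. A further 3 fractions were oligopotent. Granulocyte-macrophage progenitors (GMPs) were Sca-1-, c-kit+, FcgR+ and CD34+, and megakaryocyte-erythrocyte progenitors (MEPs) were FcgR- and CD34-. Common lymphoid progenitors (CLPs) were positive for IL-7Ra, with low Sca-1 and c-kit. There were 4 HSC libraries per age and 2 per age of each remaining fraction. The study pooled the marrow of each age ahead of the sort. Libraries of the same age may therefore share animals, and every p-value below measures the spread between these libraries.

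CXCR4 is the receptor for the chemokine CXCL12, which stromal cells of the marrow secrete, and its signal retains stem cells in their niche and guides them back after transplantation. Integrins are pairs of an alpha and a beta chain. The alpha 4 chain (Itga4) with the beta 1 chain (Itgb1) binds VCAM-1 and fibronectin, and the alpha 6 chain (Itga6) with beta 1 binds laminin. CD44 binds hyaluronan, and PSGL-1, the product of Selplg, carries the sugars by which rolling cells hold on to selectins on marrow vessels.

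The libraries differed in how many peaks they held, and this touches every comparison between fractions. MEP libraries held 9581 to 11041 peaks, GMP libraries 52576 to 63288 and the other libraries 27087 to 40157. Each summit in the lists carries a fold enrichment, which is the height of the pile of reads over the local background. A region counted as called in a library if it overlapped a peak of that library, and its value there was the highest fold enrichment among its summits. Fold enrichment also ran at different levels, since its median over the 5335 regions called in all 36 libraries was 7.52 to 7.77 in MEPs, 18.5 to 20.3 in GMPs and 11.6 to 15.5 in the others. Levels were therefore also given as log2 of the fold enrichment relative to that median of the same library. Among marker genes of the fractions, the TSS regions of Mpo and Elane, genes of granule proteins, were called in all 4 GMP libraries and in no HSC library, and that of Rag1, a recombinase gene of lymphocytes, in 2 libraries, both CLP. Cebpe, also listed for GMPs, was called in 3 GMP libraries, and the macrophage gene Csf1r in all 4, and neither in any other library. Adgre1, the other macrophage gene with a TSS region, was called in 12 libraries, namely 2 MPP3, 4 MPP4, 4 GMP and 2 CLP. Other markers were called in several fractions. Ebf1, listed for CLPs, was called in all 8 HSC and all 4 GMP libraries, Il7r in all 4 MPP4, GMP and CLP libraries each, and Flt3, listed for MPP4s, in all 32 libraries but the MEP ones. Of the HSC markers, Hlf and Meis1 were called in all 8 HSC libraries and also in all GMP libraries, and Mecom in no HSC library but in 3 GMP libraries. The TSSs of Gata1, Klf1 and Epor, which would mark MEPs, and those of the B cell genes Cd79a and Pax5 lay in no region of the catalogue, so the MEP label could not be checked in this way. Of the markers of stroma and endothelium, the TSSs of Lepr, Col1a1 and Cdh5 lay in no region, while those of Pdgfrb and Kdr were called in 27 and 18 libraries.

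Several regions carried sequences worth seeing before their values. In the 200 bp around the median summit, letters of known DNA-binding motifs were searched on both strands in 104825 regions with a full window, and a match describes letters, not a bound site. The 3 regions of these genes that were called in at least 2 MEP libraries and in fewer than 2 libraries of every other fraction all held a GATA motif (AGATAA or TGATAA), which was present in 16.9% of all regions, in 22.2% of the 153 regions and in 71.3% of the 1015 regions of the whole catalogue with the same MEP pattern. Together with these 3, another GATA-holding region is shown, in an Itga4 intron, which was called in all libraries but 1 of the GMP ones and the 4 CLP ones. The Itgb1 and Cxcr4 sequences were chosen after their values were seen. Capitals mark the GATA letters, of which the Itgb1 sequence held 6 copies, some of them adjoining. All sequences are from the GRCm38.p6 assembly (mm10), plus strand, at chr2:79259311-79259510, chr8:128688778-128688977, chr1:128552533-128552732 and chr2:79270272-79270471.
Itga4 +4.0 kb: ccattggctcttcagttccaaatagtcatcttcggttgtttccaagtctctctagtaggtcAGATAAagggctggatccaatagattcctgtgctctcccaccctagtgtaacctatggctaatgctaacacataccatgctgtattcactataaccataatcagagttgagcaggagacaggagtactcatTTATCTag
Itgb1 +3.2 kb: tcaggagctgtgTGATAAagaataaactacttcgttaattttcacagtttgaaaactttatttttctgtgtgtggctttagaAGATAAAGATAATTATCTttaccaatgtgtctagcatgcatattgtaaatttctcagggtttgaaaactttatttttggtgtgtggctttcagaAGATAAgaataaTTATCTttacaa
Cxcr4 +39.7 kb: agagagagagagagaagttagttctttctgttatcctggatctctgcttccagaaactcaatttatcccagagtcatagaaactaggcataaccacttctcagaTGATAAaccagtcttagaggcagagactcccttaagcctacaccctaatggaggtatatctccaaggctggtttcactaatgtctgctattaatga
Itga4 +14.9 kb: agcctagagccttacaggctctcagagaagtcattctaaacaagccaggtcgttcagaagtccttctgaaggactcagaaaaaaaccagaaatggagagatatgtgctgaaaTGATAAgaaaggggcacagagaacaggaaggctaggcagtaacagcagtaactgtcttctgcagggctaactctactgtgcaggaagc

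The next sequences come from regions called in a single lineage. The region 282.2 kb upstream of Cxcr4 (window chr1:128874336-128874535) was called in all 4 CLP libraries and in no other, and it held the E-box letters CAGCTG and the RUNX letters TGTGGT, both in capitals here and the latter on the minus strand. Of the 3 Cxcr4 regions with peaks in 2 or more CLP libraries and fewer than 2 of any other fraction, 2 held this E-box and 2 held the RUNX letters. In all regions with that pattern the E-box stood in 31% and the RUNX letters in 42.2%, against 14.6% and 25.5% of all 104825 regions. The regions 50.1 kb upstream of Cxcr4 (chr1:128642360-128642559) and 32.7 kb upstream of Vcam1 (chr3:116162330-116162529) were called in all 4 GMP libraries and in no other. Each held the C/EBP letters TTGCNNAA, in capitals here and on the minus strand in the Vcam1 sequence. These letters stood in 13 of the 45 regions with the GMP pattern (28.9%), in 26% of all 23074 regions with that pattern and in 13.2% of all regions.
Cxcr4 -282.2 kb: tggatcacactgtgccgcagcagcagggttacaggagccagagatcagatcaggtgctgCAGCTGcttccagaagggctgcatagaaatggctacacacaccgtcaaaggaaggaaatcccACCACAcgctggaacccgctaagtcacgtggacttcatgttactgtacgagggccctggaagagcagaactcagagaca
Cxcr4 -50.1 kb: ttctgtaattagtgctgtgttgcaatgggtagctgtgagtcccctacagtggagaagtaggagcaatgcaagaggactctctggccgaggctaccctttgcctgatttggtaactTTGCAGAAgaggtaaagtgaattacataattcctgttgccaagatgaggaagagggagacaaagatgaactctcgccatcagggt
Vcam1 -32.7 kb: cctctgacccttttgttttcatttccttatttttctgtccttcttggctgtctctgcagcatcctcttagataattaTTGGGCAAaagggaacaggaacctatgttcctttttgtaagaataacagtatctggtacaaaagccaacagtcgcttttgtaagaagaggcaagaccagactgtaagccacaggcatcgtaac

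Promoter sequences from RefSeq (GRCm38.p6) were matched for 4 of the 7 genes: Cxcr4, Itga4, Itgb1 and Cd44. Itga6, Vcam1 and Selplg had no entry. The 250 bases before the start are shown for Cxcr4 and Cd44, whose TSS regions were called in all 36 libraries, and for Itga4, whose TSS region was called in 1 of 4 MEP libraries. They lie at chr1:128592300-128592549 (minus strand), chr2:102901666-102901915 (minus strand) and chr2:79255176-79255425 (plus strand), and each is written along its gene. Capitals mark the GC box GGGCGGG on either strand, which occurred in 2 copies before Cxcr4, in 1 before Itga4 and in none before Itgb1 or Cd44. It was present in 23.4% of 32851 RefSeq promoters of this length. Of the RUNX and E-box letters and the KLF letters CCNCACCC, the Itga4 sequence held each, left here in lower case, and the other promoters held none. They stood in 14%, 13% and 14.9% of the RefSeq promoters.
Cxcr4 promoter: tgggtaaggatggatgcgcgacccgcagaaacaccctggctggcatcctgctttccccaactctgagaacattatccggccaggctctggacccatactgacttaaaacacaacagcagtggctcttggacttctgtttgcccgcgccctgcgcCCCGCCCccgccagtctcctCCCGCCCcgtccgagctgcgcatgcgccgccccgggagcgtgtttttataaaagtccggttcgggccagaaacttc
Cd44 promoter: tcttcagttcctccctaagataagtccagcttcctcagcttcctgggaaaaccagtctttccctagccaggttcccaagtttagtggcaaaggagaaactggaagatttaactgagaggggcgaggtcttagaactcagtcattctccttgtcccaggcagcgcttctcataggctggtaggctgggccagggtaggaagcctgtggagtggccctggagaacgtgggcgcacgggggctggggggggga
Itga4 promoter: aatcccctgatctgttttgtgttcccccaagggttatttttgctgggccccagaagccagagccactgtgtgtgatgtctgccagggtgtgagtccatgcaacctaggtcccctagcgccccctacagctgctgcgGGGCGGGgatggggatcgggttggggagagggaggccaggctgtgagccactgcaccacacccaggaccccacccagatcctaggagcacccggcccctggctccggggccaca

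The genes differed in how many regions the rule gave them. A gene far from other protein-coding TSSs can receive more regions. Neither these counts nor the annotation shares below were set against that distance. Cxcr4 had 45 regions, which reached from 283.1 kb upstream to 85.2 kb downstream of its TSS. Itga4 and Cd44 had 28 each, Itga6 had 17, Itgb1 had 13, Vcam1 had 12 and Selplg had 10. By their centres, 108 of the 153 regions (70.6%) were intergenic, against 41.8% of all regions, 34 lay in introns (22.2%, against 40.6%), 7 in promoters (4.58%, against 12.1%) and 4 in UTRs, while none lay in a coding exon. Not all intronic regions lay in the gene they were given to. Of the 10 Selplg regions, 5 lay in the neighbouring gene Coro1c, and 2 Itga4 regions lay in Cerkl. The spread over libraries was wide, since 2 regions (1.31%, against 5.08% of all regions) were called in all 36 libraries, 12 (7.84%, against 11.6%) in at least 32 and 27 (17.6%, against 18.4%) in a single library.

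**Figure D1:**
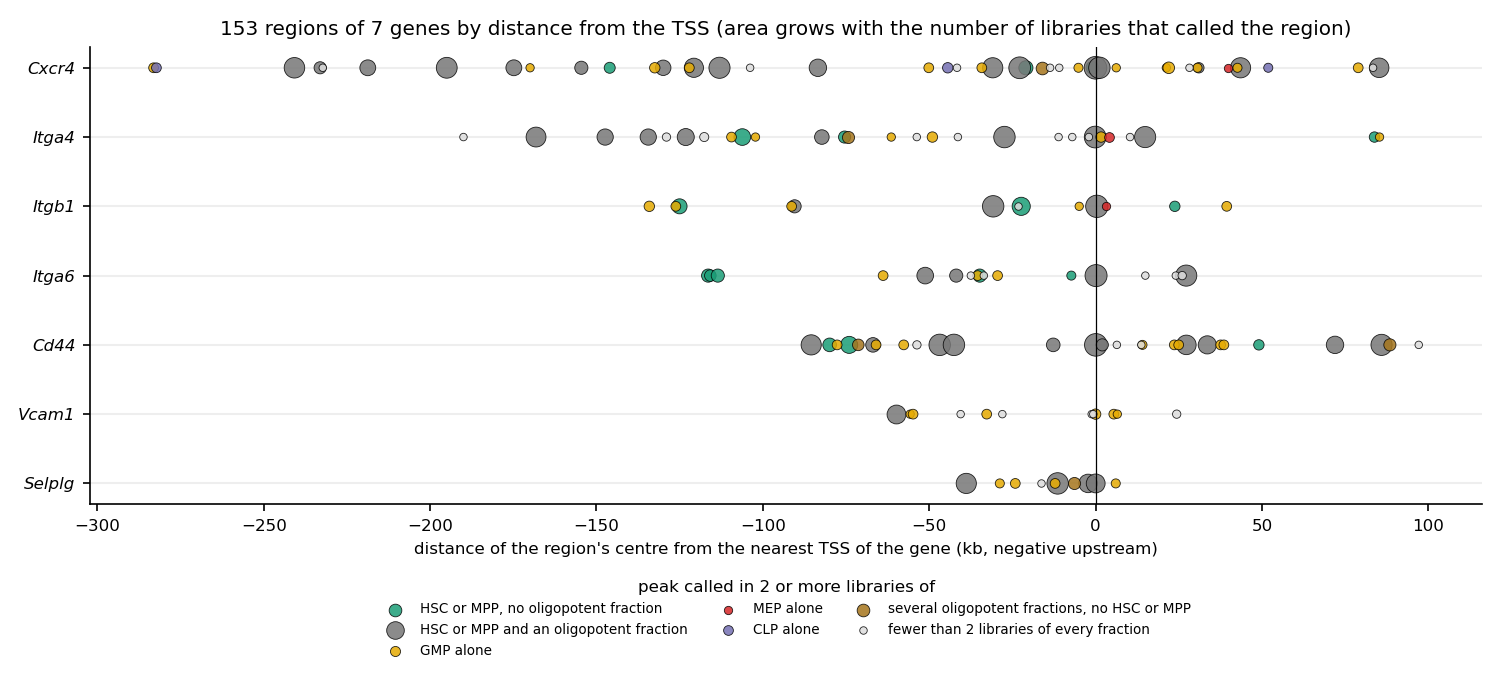
Each circle is one of the 153 regions, placed by the distance of its centre from the nearest TSS of its gene (horizontal axis, kb, negative upstream), with 1 line per gene. Colour gives the fractions in which at least 2 libraries called it, and larger circles were called in more libraries. Cxcr4 had the most regions (45) and the widest reach, and Vcam1 and Selplg had 12 and 10.

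Grouped by the fractions in which at least 2 libraries called them, 48 of the 153 regions (31.4%) were shared between HSCs or MPPs and an oligopotent fraction, against 35.9% of all regions. The regions of GMPs alone came next, with 45 (29.4%, against 22% of all regions). HSCs or MPPs alone had 17 (11.1%, against 13.8%), several oligopotent fractions without HSCs or MPPs had 5 (3.27%, against 2.59%), MEPs alone had 3 (1.96%, against 0.968%) and CLPs alone had 3 (1.96%, against 2.26%). The remaining 32 (20.9%, against 22.5%) were called in fewer than 2 libraries of every fraction. The pattern was not alike in the 7 genes. GMPs alone held 6 of the 12 Vcam1 regions and 4 of the 10 Selplg regions, HSCs or MPPs alone held 5 of the 17 Itga6 regions, and all 3 regions of CLPs alone were those of Cxcr4. A class here is a description of calls, and it moves with the number of peaks in a library.

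Per library, aged HSCs called 35 to 37 of the 153 regions and young HSCs 31 to 50. MPP1s called 41 to 53, MPP2s 42 to 46, MPP3s 33 to 49 and MPP4s 44 to 47. GMPs called 80 to 101, MEPs 7 to 11 and CLPs 34 to 42. As a share of the 153, HSCs called 26.6% (young) and 23.5% (aged), where they called 30.03% and 29% of all regions, and CLPs called 26.1% and 24.8%, where they called 29.7% and 28.4%. GMPs called 59.2% (young) and 59.8% (aged), where they called 53.5% and 56.1% of all regions. MEPs called 5.88% at both ages, where they called 9.04% (young) and 9.67% (aged) of all regions.

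**Figure D2:**
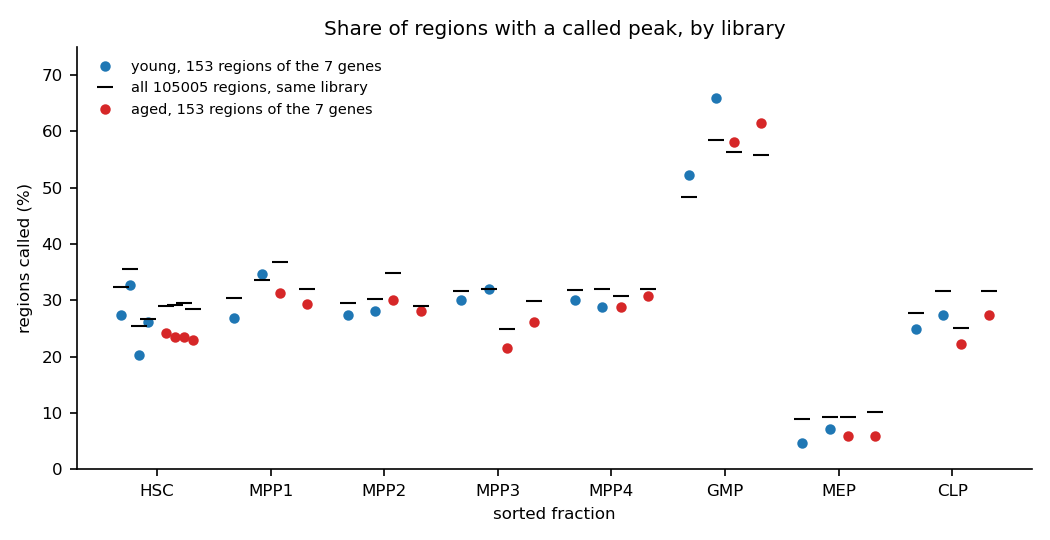
Share of regions with a called peak (vertical axis, %) in each library, by sorted fraction. Points are the 153 regions of the 7 genes in young (blue) and aged (red) libraries, and the dash at each point is the share of all 105005 regions in the same library. GMP libraries called 80 to 101 of the 153 and MEP libraries 7 to 11.

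Cxcr4 was open at its TSS in every library (chr1:128592035-128592637, promoter). Fold enrichment there ran from 4.04 over 6.80 (mean) to 8.64 in HSCs. It was 8.07 to 10.4 in GMPs, 4.97 to 5.23 in MEPs and 5.4 to 6.55 in CLPs. Every GMP library lay above every CLP library and every CLP library above every MEP library, while the range of HSCs overlapped all 3. Relative to the median of its own library, the Cxcr4 TSS stood lowest in MPP2s (log2 -1.19 ± 0.14, SD, n = 4) and highest in MEPs (-0.59 ± 0.04, n = 4). MEPs were 0.39 above the mean of HSCs and MPPs on this scale (SE 0.11, limma adjusted p = 0.0046), and without setting libraries to their median the difference turned to -0.40 (limma adjusted p = 0.0017). The TSSs of Cxcr4 and Cd44 were the 2 regions called in all libraries and so the 2 that this test could take. Cxcr4 passed in MEPs, where 40.6% of the 5335 regions tested did. Neither passed in GMPs or had an unadjusted p under 0.05 there (limma, 48.9% and 54.7% of all), and neither passed in CLPs, where 8.51% of all did and 1 of the 2, Cd44, had an unadjusted p under 0.05 (23.6% of all had). At the Cxcr4 TSS the difference was log2 -0.14 (limma adjusted p = 0.32) in GMPs and -0.18 (limma adjusted p = 0.34) in CLPs. A second region within the gene, 1.13 kb into it, was called in all 32 libraries but the MEP ones.

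Other Cxcr4 regions were called in some fractions and not in others. A second promoter region, 0.96 kb upstream, was called in 9 HSC and MPP libraries and in no GMP, MEP or CLP library, at 3.27 to 5.03, and it was singled out after its values were seen. The region 30.9 kb upstream (chr1:128622904-128623509, intergenic) was called in all HSC, MPP and GMP libraries and in no MEP or CLP library. Its fold enrichment was 7.08 to 15.4 in HSCs and 7.20 to 10.6 in GMPs. The region 16 kb upstream (chr1:128608092-128608491) was called in GMPs and CLPs, with 17.9 to 19.7 in GMPs, 15.7 to 22.3 in CLPs, 6.29 in 1 aged MPP4 library and no peak elsewhere. Further regions were those of 1 fraction. At 50.1 kb upstream (chr1:128642272-128642592) the 4 GMP libraries read 16.1, 18.7, 19.6 and 21.8. At 34.2 kb upstream (chr1:128626329-128626662) they read 19.4, 21.6, 17.1 and 18.9. At 78.9 kb downstream they read 9.59 to 11.4. None of these 3 was called in any other library. At 282.2 kb upstream the CLP libraries read 6.91, 10.1, 7.40 and 6.31, again with no peak elsewhere. The region 113.0 kb upstream (chr1:128705005-128705633) was called in 31 libraries, at 25.4 to 27.5 in GMPs and 14.9 to 21.3 in MPPs, while no MEP library called it. Relative to the library median it stood at log2 0.46 ± 0.05 (SD, n = 4) in GMPs and 0.55 ± 0.07 (n = 4) in MPP2s.

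The 3 integrin genes held different sets of regions. The TSS region of Itga4 (chr2:79254651-79256091, promoter) was called in all but 3 MEP libraries. It read 3.83 to 6.67 in HSCs, 8.03 to 10.5 in MPP4s, 10.2 to 12.4 in CLPs and 14.1 to 15.5 in GMPs. HSC values lay below all MPP4, CLP and GMP values. Relative to the library median the order was HSCs (log2 -1.21 ± 0.33, SD, n = 8), MPP4s (-0.54 ± 0.29, n = 4), GMPs (-0.37 ± 0.04, n = 4) and CLPs (-0.28 ± 0.09, n = 4), and MPP1s, MPP2s and MPP3s lay between -1.06 and -1.01. HSCs were within their spread of MPP1s to MPP3s, and MPP4s were within theirs of GMPs. The region in the Itga4 intron 14.9 kb from the TSS (chr2:79270096-79270669), whose sequence with a GATA motif is given above, ran the other way. It read 9.85 to 14.8 in HSCs, 4.34 to 6.76 in MPP4s and 5.63 to 9.52 in MEPs, was called in 3 of 4 GMP libraries and had no peak in CLPs. On the relative scale it fell from 0.30 ± 0.25 (SD, n = 4) in MPP2s and 0.02 ± 0.22 (n = 8) in HSCs to -1.24 ± 0.35 (n = 4) in MPP4s, with MEPs at 0.08 ± 0.36 (n = 4). These levels are a description, as regions without a call in all 36 libraries entered no test of fold enrichment between fractions.

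Further Itga4 regions separated fractions. The region 27.4 kb upstream (chr2:79227756-79228447) was called in all 32 libraries but the MEP ones, with 16 to 21.3 in CLPs against 6.45 to 12.9 in HSCs. The region 74.5 kb upstream (chr2:79180781-79181311) was called in all GMP (10.1 to 15) and all CLP libraries (10.6 to 18.5) and in no other. The region in the intron 4.0 kb from the TSS (chr2:79259237-79259693) was called in the 4 MEP libraries, at 6.63, 5.85, 5.11 and 5.03, and in no other library. It was the 1 region among the 153 called more often in MEPs than in HSCs and MPPs by the test given further on, or 1 of 3 without aged MEP replicate 1.

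Itgb1, the beta chain shared by several alpha chains, was called at its TSS (chr8:128685270-128686748) in 35 libraries, with 15.5 to 18.1 in GMPs, 6.78 to 11.6 in HSCs and 4.94 to 6.88 in the 3 MEP libraries that called it. Relative to the library median the TSS of Itgb1 stood at log2 -0.18 ± 0.08 (SD, n = 4) in GMPs and -0.49 ± 0.27 (n = 8) in HSCs. Of its regions away from the TSS, the one with the highest median fold enrichment lay 22.4 kb upstream (chr8:128663101-128663495, intergenic). Young HSCs read 19.8, 22.4, 14.7 and 15.4 there and aged HSCs 22, 16.1, 19.9 and 17.3. MPP1s read 15.2 to 17.8, MPP2s 7.29 to 11.9, and MPP3s and MPP4s lacked the peak in 1 of 4 libraries each. No GMP, MEP or CLP library called it, so the calls ended with the oligopotent fractions, and the values of HSCs and MPP1s lay above all those of MPP2s, MPP3s and MPP4s. Relative to the library median the region stood at log2 0.52 ± 0.18 (SD, n = 8) in HSCs, 0.36 ± 0.08 (n = 4) in MPP1s and -0.42 ± 0.38 (n = 4) in MPP2s. The HSC and MPP1 levels lay within their spread of each other.

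Itga6 was called at its TSS (chr2:71786608-71787603, with its centre in the UTR) in all libraries but 2 of the MEP ones, with 6.58 to 10.9 in HSCs and 10.2 to 16.9 in GMPs. Relative to the library median the TSS stood at log2 -0.61 ± 0.24 (SD, n = 8) in HSCs and -0.56 ± 0.30 (n = 4) in GMPs. An intronic region 27.2 kb into the gene (chr2:71813926-71814499) read 12.8 to 19.8 in HSCs, 15.8 to 22.6 in GMPs and 8.40 to 9.82 in the 3 CLP libraries that called it. On the relative scale this region stood at 0.21 ± 0.18 (SD, n = 8) in HSCs and 0.05 ± 0.22 (n = 4) in GMPs, within their spread of each other. It was not called in MEPs. Upstream of the gene, the region at 63.9 kb (chr2:71722917-71723244) was called in the 4 GMP libraries and in no other, at 12.6 to 15.8. Further upstream, the region at 113.5 kb was called in all 8 HSC libraries, at 5.25 to 9.72, in 2 MPP1 libraries and in no other. The latter region was singled out after its values were seen.

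Cd44 was, with Cxcr4, 1 of the 2 genes called at the TSS (chr2:102901072-102901800, promoter) in all 36 libraries. It read 8.23 to 12 in HSCs, 12.7 to 17.1 in GMPs, 5.12 to 6.13 in MEPs and 7.66 to 9.04 in CLPs. Relative to the library median, HSCs stood at log2 -0.38 ± 0.14 (SD, n = 8), GMPs at -0.35 ± 0.16 (n = 4) and MEPs at -0.44 ± 0.14 (n = 4), which lay within their spread of each other. CLPs stood at -0.68 ± 0.03 (n = 4), 0.28 below the mean of HSCs and MPPs, as log2 -0.28 (SE 0.11), which missed the threshold (limma adjusted p = 0.091). The distal region with the highest median fold enrichment lay 42.6 kb upstream (chr2:102943975-102944525). It was called in all 32 libraries but the MEP ones, at 8.59 to 16.7 in HSCs and 18.2 to 21.2 in GMPs. Relative to the library median it stood at log2 -0.02 ± 0.29 (SD, n = 8) in HSCs and 0.04 ± 0.06 (n = 4) in GMPs. In GMPs the region 85.5 kb upstream read higher, at 22.4 to 25.1. In the 3' end of the gene, a region centred in its UTR 88.4 kb from the TSS was called in all GMP (8.91 to 12.6) and all CLP libraries (4.98 to 8.22) and in no other. Within the gene, regions 37.5 and 38.5 kb from the TSS were called in the 4 GMP libraries and in no other, at 5.39 to 8.88.

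Vcam1 encodes the ligand of the alpha 4 beta 1 integrin and is best known from stromal and endothelial cells. None of its 12 regions was called in any MEP or CLP library. Its TSS region (chr3:116129276-116129644, promoter) was called in 5 libraries, all aged, at 5.28 in MPP1, 6.79 in MPP2, 4.76 in MPP4, and 7.88 and 9.87 in GMPs. Close to it, a region 0.70 kb upstream was called in young GMP replicate 1 alone (6.24). Another, 1.18 kb upstream, was called in young GMP replicate 2 alone (8.14). The region 60.0 kb upstream (chr3:116189404-116190067) was called in all 8 HSC libraries, at 7.61 to 14.8, in all MPP1, MPP2 and MPP4 libraries, in both young MPP3 libraries and neither aged one, and in 1 GMP library per age. The 4 GMP libraries alone called 3 regions, 32.7 kb upstream at 13.2, 13.7, 14.8 and 17.9, 54.9 kb upstream at 11.3 to 13.2 and 5.5 kb into the gene at 10.2 to 12.7.

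Selplg was called at its TSS (chr5:113830242-113830712, promoter) in 24 libraries and in no MEP library. It read 11 to 14.6 in GMPs and 8.25 to 11.6 in MPP3s. In HSCs it read 8.76, 5.65 and 5.55 in 3 young libraries and had no peak in the fourth or in any aged one. The region 11.4 kb upstream (chr5:113841622-113842208) was called in all 32 libraries but the MEP ones, at 9.90 to 19.5 in HSCs and 15.9 to 18.7 in GMPs. Relative to the library median this region stood at log2 0.02 ± 0.32 (SD, n = 8) in HSCs and -0.14 ± 0.09 (n = 4) in GMPs. The region 2.26 kb upstream (chr5:113832531-113832981) was called in all HSC (6.23 to 9.48), MPP4 (7.01 to 10.5) and CLP libraries (6.76 to 9.02) and in no GMP or MEP library, while that at 6.6 kb upstream (chr5:113836999-113837282) was called in all GMP (5.17 to 9.39) and CLP libraries (4.87 to 9.51) and in no other.

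**Figure D3:**
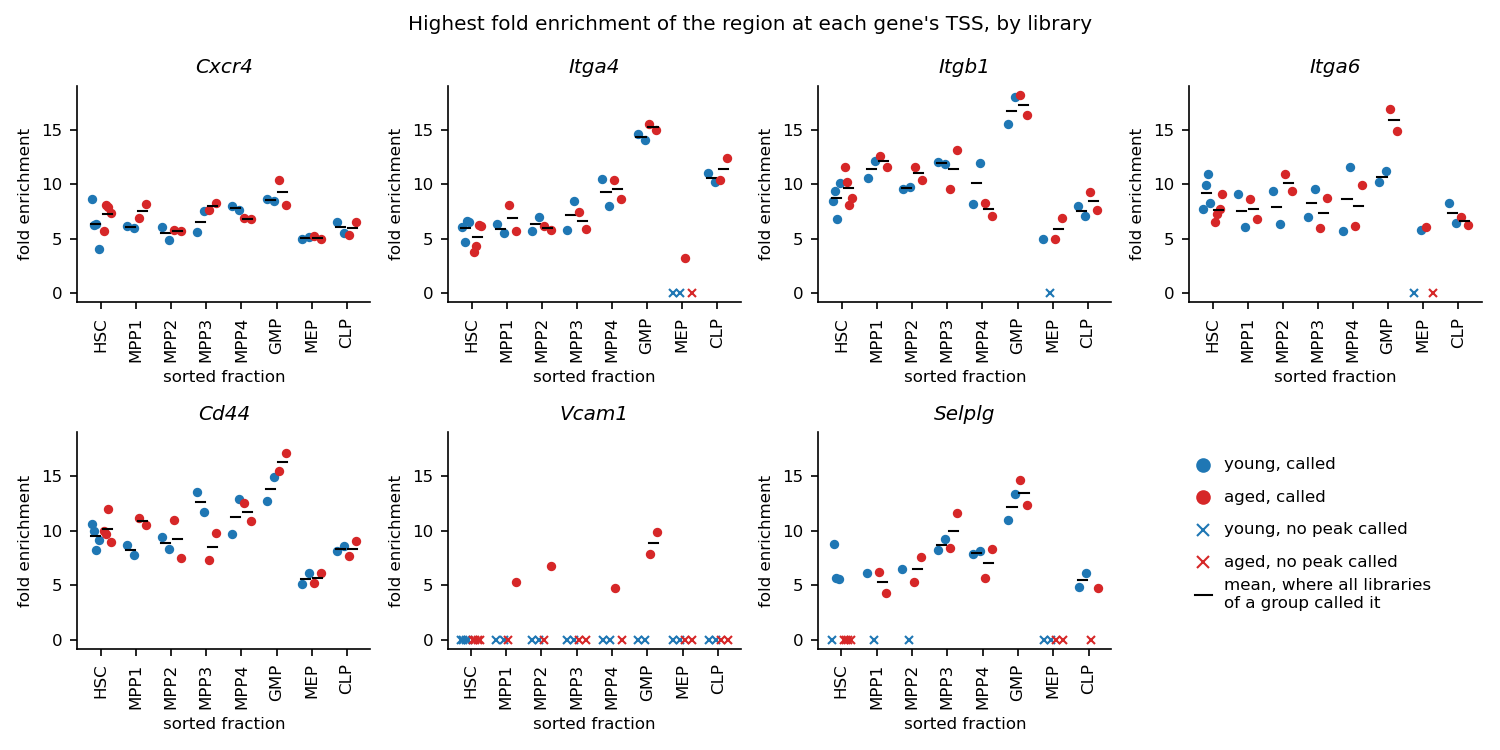
Highest fold enrichment (vertical axis) of the region at the TSS of each gene, by sorted fraction. Points are single libraries, young in blue and aged in red, a cross at 0 means that no peak was called, and a dash is the mean of a group in which every library called the region. Cxcr4 and Cd44 have a point in all 36 libraries, whereas Vcam1 has points in 5 aged libraries.

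The TSS patterns of Selplg and Vcam1 were compared with those of other genes, as the number of the 36 libraries in which the call at the TSS differed. For Selplg, the nearest were Srp68, Dgkg and Nlrc3, which differed in 3 libraries each and correlated in fold enrichment with Selplg at r = 0.87, 0.67 and 0.60, with uncalled libraries at 0. For Vcam1, the nearest were Tmem179, Gm12166 and Fabp3, at 3 differing libraries each and r of 0.78, 0.77 and 0.77, and each of these was called in 2 libraries. All these points share their libraries, and 12 genes lay at that distance from Vcam1.

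The calls were then compared between each oligopotent fraction (4 libraries) and the 24 HSC and MPP libraries, with Fisher's exact test per region. The test was two-sided and adjusted over all regions after Benjamini and Hochberg, with a threshold of 0.05. It took the 24 libraries of HSCs and MPP1s to MPP4s as 1 group and the ages together, so differences among those fractions or between ages were not modelled. In GMPs 54 of 132 regions tested were called more often and 4 less often, where 33.7% of all regions were called more often and 3.07% less often. The median difference in the share of libraries was 33.3 percentage points for these regions and 25 for all. More frequent calls were found in 14 of 39 Cxcr4 regions, 7 of 23 Itga4 regions, 6 of 10 Itgb1 regions, 4 of 15 Itga6 regions, 13 of 25 Cd44 regions, 5 of 12 Vcam1 regions and 5 of 8 Selplg regions. The 4 that were called less often lay 106.2 kb upstream of Itga4, 22.4 kb upstream of Itgb1, 74.0 kb upstream of Cd44 and 2.26 kb upstream of Selplg. Leaving out any 1 of the 4 GMP libraries left 39 to 48 called more often and 1 called less often, that of Itgb1, where 27.6% to 29.7% and 1.67% to 1.98% of all regions were. The regions called in all GMP libraries and in none of the 24 others, such as those 50.1 kb upstream of Cxcr4 and 32.7 kb upstream of Vcam1, had the smallest adjusted p of this exact test (0.000379). GMP libraries held the most peaks. With as many of the strongest peaks taken from each library as the smallest one held, 81 regions were tested. Of these, 12 were called more often and 7 less often, where 13.6% and 8.2% of all regions were. Of the 58 regions called first, 13 were called again in the same direction. They included the regions 50.1, 34.2 and 16 kb upstream of Cxcr4, 32.7 kb upstream of Vcam1, 12.2 kb upstream of Selplg (in the UTR of Coro1c), 88.4 kb into Cd44, and, called less often, 22.4 kb upstream of Itgb1.

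In MEPs 24 of 90 regions tested were called less often than in HSCs and MPPs and 1 more often, where 20.0% of all regions were called less often and 1.09% more often. The 24 were spread over all 7 genes, with 7 of Cxcr4, 6 of Cd44, 4 of Itga4, 3 of Selplg, 2 of Itgb1 and 1 each of Itga6 and Vcam1. They included the TSS region of Itga4 (Fisher's exact test, adjusted p = 0.0087) and the regions 30.9 kb upstream of Cxcr4, 42.6 kb upstream of Cd44 and 11.4 kb upstream of Selplg (each adjusted p = 0.000624, exact test). The 1 called more often was the intronic Itga4 region at 4.0 kb (adjusted p = 0.000624, exact test). Leaving out any 1 of the 4 MEP libraries left 19 to 22 called less often and 1 to 3 more often, where 14% to 16.1% and 0.705% to 1.31% of all regions were. The 3 came without aged MEP replicate 1 and added the regions 39.7 kb downstream of Cxcr4 and 3.2 kb into Itgb1. MEP libraries held the fewest peaks. At an equal number of peaks per library 39 regions were tested. Of these, 5 were called less often and 2 more often, where 7.42% and 8.17% of all regions were. The 2 were the Cxcr4 TSS and the region 4.0 kb into Itga4. The 6 called in both analyses lay 113.0 kb upstream of Cxcr4, 27.2 kb into Itga6, 42.6 and 46.9 kb upstream of Cd44, 30.8 kb upstream of Itgb1 and, called more often, 4.0 kb into Itga4. When a peak had to cover 50% of a region, 93 were tested. Of these, 9 were called less often, the Cxcr4 TSS among them, and 1 more often, where 9.77% and 0.932% of all regions were.

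In CLPs 7 of 85 regions tested were called more often and 6 less often, where 5.88% of all regions were called more often and 3.72% less often. Called more often were 3 Cxcr4 regions, 44.4, 16 and 282.2 kb upstream, the Itga4 region 74.5 kb upstream, the Cd44 regions 71.3 kb upstream and 88.4 kb downstream and the Selplg region 6.6 kb upstream. Called less often were the regions 30.9 kb upstream and 85.2 kb downstream of Cxcr4, 14.9 kb into Itga4, 22.4 kb upstream of Itgb1, 27.3 kb into Cd44 and 60.0 kb upstream of Vcam1. The smallest adjusted p of this exact test was 0.00186. At equal peak numbers 6 of 73 regions tested were called more often and 4 less often, where 6.92% and 3.59% of all regions were. Of these 10, 9 were called in both analyses. At 50% coverage 7 of 96 regions tested were called more often and 1 less often, where 5.11% and 1.85% of all regions were. Of the 13 calls, 5 were kept (4 more often and, 14.9 kb into Itga4, 1 less often). At a −log10 q of at least 10, 4 of 67 were called more often and 3 less often, where 5.23% and 3.4% of all were. Here 6 of the 13 calls were kept (3 and 3). Leaving out any 1 of the 4 CLP libraries left 5 or 6 called more often and 2 called less often, those 30.9 kb upstream of Cxcr4 and 14.9 kb into Itga4, where 2.65% to 3.23% and 1.41% to 1.63% of all regions were.

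**Figure D4:**
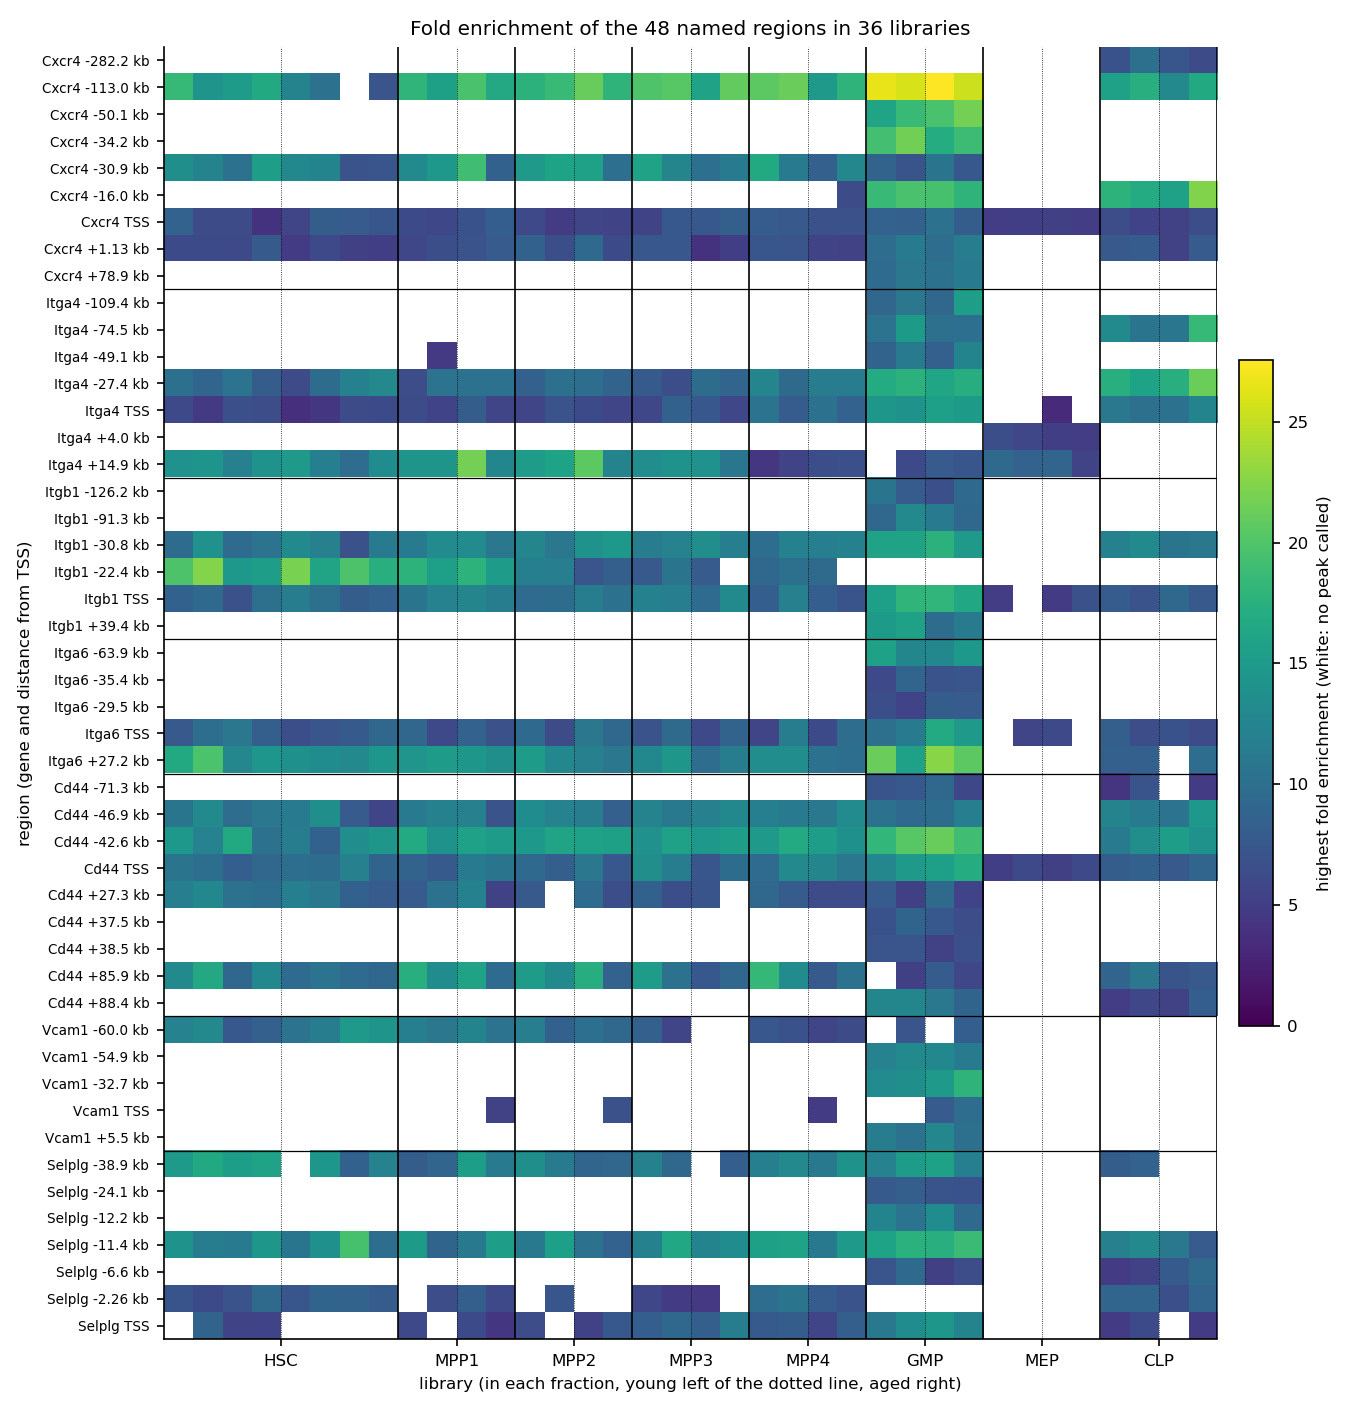
Highest fold enrichment (colour, white where no peak was called) of 48 regions, named in part for the smallest adjusted p in the GMP, MEP and CLP call tests (lines, by gene and distance from the TSS in kb) in the 36 libraries (columns, young left and aged right of the dotted line in each fraction). That choice favours regions that differ in these fractions. As an example, the region 22.4 kb upstream of Itgb1 is filled in HSCs and MPPs but white in GMPs, MEPs and CLPs.

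Other genes of homing and adhesion served for comparison. The list held 41 genes, of which 39 had 461 regions: ligands and counter-receptors such as Cxcl12 and Selp, other receptors such as Itgal and Pecam1, genes of integrin activation and motility such as Tln1 and Rac2, and enzymes of selectin ligand synthesis such as St3gal6. In GMPs 148 of 406 regions tested (36.5%) were called more often and 11 (2.71%) less often. In MEPs 73 of 314 (23.2%) were called less often and 2 more often, and in CLPs 18 of 316 (5.7%) more often and 22 (6.96%) less often. Beside the shares of all regions given above, the share called less often in CLPs was higher in this list, and no test of that difference was made. By group, more frequent calls in GMPs were found in 30 of 67 regions of the ligands, 66 of 197 of the other receptors, 28 of 68 of the activation and motility genes and 24 of 74 of the synthesis enzymes. At their TSSs, Cd47, Hmmr, Rap1a, Rap1b, Rhoa and B4galt1 were called in all 36 libraries. The TSS of Cxcl12, the ligand of CXCR4, was called in 6 libraries and that of Selp, a selectin that PSGL-1 binds, in 15 (5 young and 10 aged). With age, no region of the ligands had an unadjusted p under 0.05 in HSCs (18 tested, Fisher's exact test). Nor did any over all fractions (57 tested, exact conditional test). Of all regions, 1.06% and 1.37% had such a p.

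Calls were compared between ages in HSCs and over all fractions together, not in each remaining fraction alone. In HSCs 33 of the regions varied in their calls, and none passed the threshold in either direction, nor did any at an unadjusted p under 0.05 (Fisher's exact test, 0.0% of 34285 regions called). Without young HSC replicate 3 the count at an unadjusted p under 0.05 was 3 of 31 (120.7 kb upstream of Cxcr4, 82.3 kb upstream of Itga4 and 74.0 kb upstream of Cd44), where 2.15% of all regions had such a p, and without young HSC replicate 1 it was 1 of 32, the Selplg TSS, where 1.72% had. None passed after adjustment in either case. With 4 libraries per age this exact test cannot give less than p = 0.0286, which 365 of all regions reached. Over all fractions, with ages compared within each fraction by an exact conditional test, none of 116 regions passed (0.0% of 85292), and 1 had an unadjusted p under 0.05, where 1.37% of all regions had. That 1 was the Vcam1 TSS, called in 5 of 18 aged and 0 of 18 young libraries (exact p = 0.042, adjusted p = 1). With the replicate block within fractions no region had such a p, where 0.774% of all regions did. At a −log10 q of at least 10 none had either, where 1.32% did. At equal peak numbers it was 1 other region of 42 tested, 85.9 kb downstream of Cd44, where 1.5% of all did. At 50% coverage it was 3 of 127, the Vcam1 TSS among them, where 1.35% did. Without single libraries 0 to 4 regions had such a p, where 1.41% to 1.96% of all had, and the Vcam1 TSS was not among them without the aged MPP1, MPP2 or MPP4 library that called it. The median difference in the share of HSC libraries was -25 percentage points (aged minus young) over the 33, with 19 lower, 10 higher and 4 without a difference, and 0 over all regions. Over all fractions it was -3.13 points (59 lower, 35 higher) against 0.

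The calls in HSCs nearest to an age pattern were in young cells. Of the 58 regions called in any HSC library, 4 were called in 3 young libraries and no aged one, where 1.44% of all regions were called in 3 or 4 young and no aged library. None was called in 3 or 4 aged libraries and no young one, where 1.34% of all regions were, and none in all 4 libraries of either age and no library of the opposite age, where 0.707% were. The 4 were the Selplg TSS and the regions 120.7 kb upstream of Cxcr4, 82.3 kb upstream of Itga4 and 74.0 kb upstream of Cd44, of which the last 3 were chosen after their values were seen. At 120.7 kb upstream of Cxcr4 the young libraries that called it read 6.81, 4.71 and 7.49, and GMPs of both ages read 23.6 to 25.4. At 74.0 kb upstream of Cd44 they read 7.86, 5.76 and 5.35, and all 16 MPP libraries of both ages called the region, at 6.24 to 16.1. At 82.3 kb upstream of Itga4 they read 5.24, 5.24 and 6.12, and all 8 MPP1 and MPP2 libraries called it. In these 3 regions the missing young library was replicate 3, which called the fewest of the 153 regions in HSCs (31) and held the fewest peaks of the 8 (27856).

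Fold enrichment with age was compared at regions called in every library of a fraction, with limma on log2 values set to the median of each library. In HSCs none of 25 regions passed the threshold, and 1 had an unadjusted p under 0.05. Of all regions 0.0231% passed and 9.09% had an unadjusted p under 0.05. In MPPs none of 20 regions passed and 2 had an unadjusted p under 0.05 (0.0% and 8.05% of all). At the 2 regions called everywhere, the TSSs of Cxcr4 and Cd44, no difference over all fractions passed (0.0375% of all did) and none had an unadjusted p under 0.05, with log2 0.13 ± 0.07 (SE, limma adjusted p = 0.73) and 0.05 ± 0.06 (adjusted p = 0.94). Whether the age difference itself differed between HSCs and MPPs was tested at 16 regions, none of which passed (limma, 0.0% of 13465) or had an unadjusted p under 0.05. The median difference in HSCs was -0.14 over the 25 regions (17 lower, 8 higher) and -0.01 over all, and in MPPs -0.02 over the 20 and 0.00 over all.

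The region with the lowest p in both was 85.9 kb into Cd44 (chr2:102815137-102815723, intron). Young HSCs read 13, 16.6, 9.32 and 12.8 there and aged HSCs 9.67, 10.5, 9.62 and 9.27. The groups overlapped in 1 young library. In MPPs it read 10.4 to 18.4 in young and 7.58 to 17.2 in aged libraries. The log2 difference was -0.38 (SE 0.17, limma adjusted p = 0.52) in HSCs and -0.42 (SE 0.14, limma adjusted p = 0.44) in MPPs. Such lower values at an unadjusted p under 0.05 were found at 5.02% of all regions in HSCs and 3.87% in MPPs. The other MPP region was 27.2 kb into Itga6 (log2 -0.23, SE 0.08, limma adjusted p = 0.49). The region 60.0 kb upstream of Vcam1 lay on the other side in HSCs, with young libraries at 12.2, 13, 7.61 and 8.45 and aged ones at 10.5, 11.6, 14.8 and 14.3 (log2 0.33, SE 0.17, limma adjusted p = 0.60), and the ages overlapped.

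In HSCs, 3 regions separated the ages without overlap in fold enrichment as deposited, and each was lower in aged libraries. At 113.0 kb upstream of Cxcr4 young HSCs read 18.4, 14.3, 15.1 and 16.8, and aged HSCs read 12.3, 10.3, no peak and 7.30. At 1.13 kb into Cxcr4 young HSCs read 6.22, 6.18, 6.11 and 7.80 and aged HSCs 4.93, 6.10, 5.18 and 5.13. At 38.9 kb upstream of Selplg, in an intron of Coro1c, young HSCs read 14.8, 16.8, 15.5 and 15.9 and aged HSCs no peak, 14.5, 8.55 and 12.2. These were 3 of the 28 regions called in all young HSC libraries, where 3.91% of 20911 such regions had every aged library below every young one. With each library set to its median, 1 of the 28 remained, that 113.0 kb upstream of Cxcr4, where 4.1% of such regions did. Of the 28 called in all aged HSC libraries none lay above every young library on either scale, where 3.94% of such regions did as deposited and 4.92% with libraries set to their median. In MPPs the region 113.0 kb upstream of Cxcr4 read 15.7 to 21.3 in young and 14.9 to 21.1 in aged libraries, with a log2 difference of -0.02 (SE 0.07, limma adjusted p = 0.97). Because 1 aged HSC library had no peak there, this region entered no test of fold enrichment in HSCs. Per HSC library, young cells called 13, 15, 8 and 12 Cxcr4 regions and aged cells 11, 9, 8 and 8, and the groups overlapped.

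**Figure D5:**
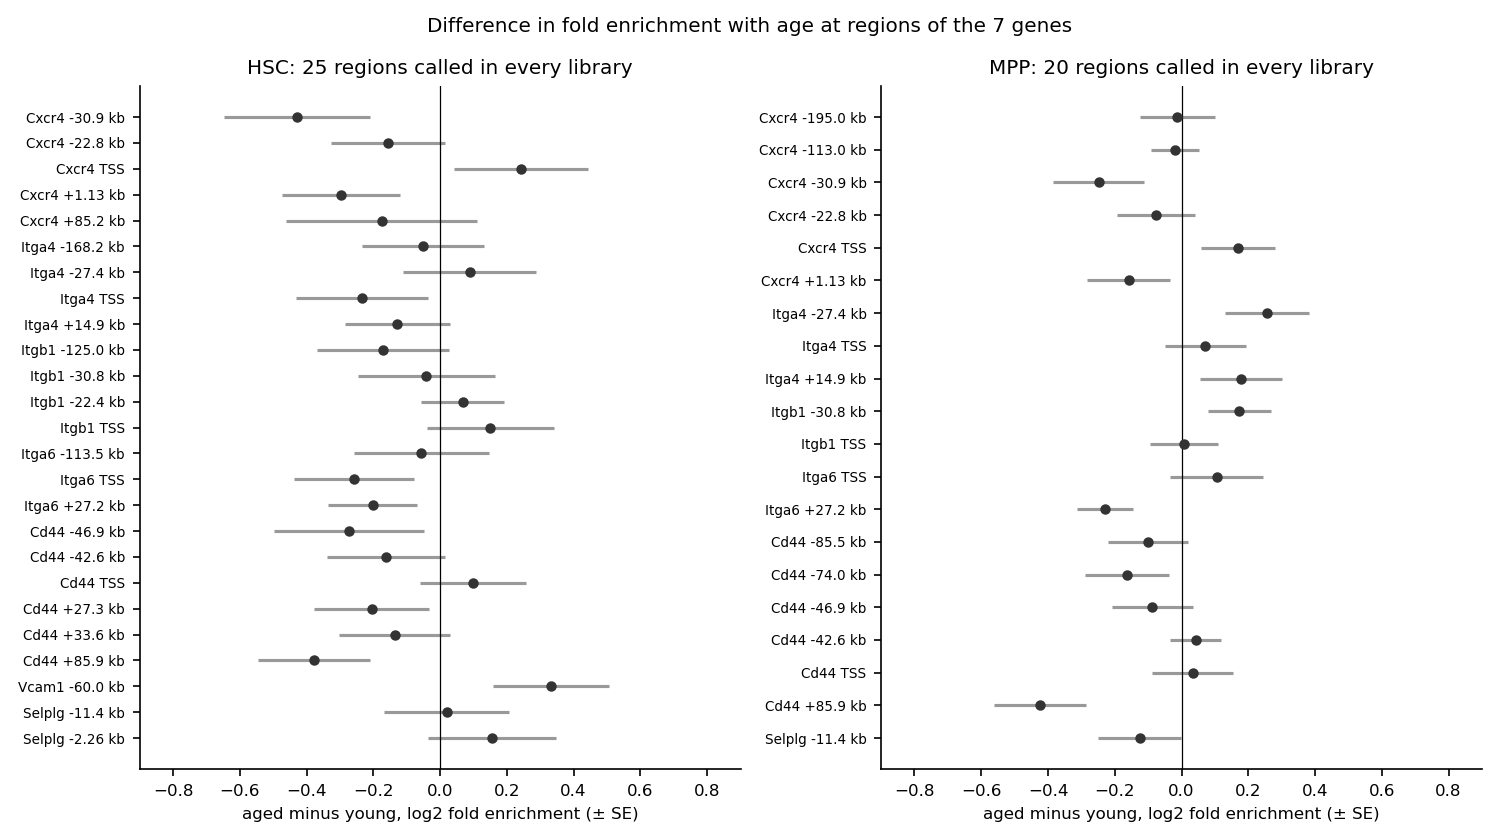
Difference in log2 fold enrichment between aged and young libraries (horizontal axis, aged minus young, ± SE) at the regions called in every HSC library (left, 25 regions) or every MPP library (right, 20 regions), after setting each library to its median. The lowest values are those 30.9 kb upstream of Cxcr4 and 85.9 kb into Cd44 in HSCs, the latter also in MPPs, and no region passed the threshold.

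In the comparison list of 41 genes, no region passed the threshold with age either, by the exact tests on calls. In HSCs 143 regions were tested and 1 had an unadjusted p under 0.05, where 1.06% of all regions had. Over all fractions 381 were tested and 3 had such a p, where 1.37% of all regions had.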

How the data were processed

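ATAC-seq, in which a transposase cuts open chromatin, was run on 36 libraries of 60 bp single reads from fragments of 240 to 360 bp. The submitters' processing notes name Bowtie2, SAMtools and MACS2 2.2.6 on mm10. The authors deposited 1 narrowPeak list per library, called per library, whose column 7 is the fold enrichment (a ratio), columns 8 and 9 the −log10 p and −log10 q, and column 5 a score; the deposited score was not used. By the study's methods, mapped reads were subsampled to 1 common number in all libraries. The deposited lists give no read counts, so that number is unknown here and the count model of the study could not be run.

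Peaks overlapping by 1 bp or more were merged and assigned to the nearest protein-coding TSS of GENCODE M21. A promoter was taken as 1000 bp before to 100 bp after a TSS, and the other annotations were read at the region's centre. Calls were compared with Fisher's exact test or an exact conditional test stratified by fraction, and log2 fold enrichment with limma 3.58.1 (R 4.3.3, trend), set to each library's median over regions called everywhere. All p-values were two-sided and adjusted after Benjamini and Hochberg over all regions tested, with a threshold of 0.05. Scripts used Python 3.11.15, numpy 2.4.6, pandas 2.3.3, scipy 1.17.1 and matplotlib 3.10.9, and the tests were tested on simulated data.

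Named singly were, for each gene, the TSS region, the distal region with the highest median fold enrichment, and up to 3 regions per fraction test with the smallest adjusted p. Other regions named were chosen after their values were seen. Alternatives were a −log10 q of at least 10, 50% coverage of a region, joining within 100 bp, nearest edge, equal peak numbers, no centring, mean of summits, replicate blocks and leaving out each library. Counts of HSC regions without overlap were also made on fold enrichment as deposited, an alternative chosen after seeing the data. Some listed genes are not reported here. The genes and lists were chosen with earlier results of these data known.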

Additional observations from a re-analysis of the deposited data

Results flagged for a closer look

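For each age, groups of 4 HSC libraries were formed from the fold enrichment at named regions and from the number of regions called per library. In these 42 groups the sample farthest from the others was set against the range of its group. Of them, 2 groups went past Dixon's 95% critical value for groups of 4, where chance gives about 1 in 20. At the region 1.13 kb into Cxcr4, young HSC replicate 4 read a fold enrichment of 7.80 while the other 3 young libraries read 6.11 to 6.22 (gap over range 0.937). At the region 14.9 kb into Itga4, young HSC replicate 3 read 12 while the other 3 read 13.9 to 14.2 (gap over range 0.858).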

How the results depend on the processing

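The regions of the 7 genes numbered 153 when assigned by nearest edge and 153 when peaks up to 100 bp apart were joined, and 118 among peaks with a −log10 q of at least 10. In GMPs, 58 of 132 regions tested differed in calls (36.8% of all regions tested did). It was 51 of 108 at the stricter q (41.5%) and 62 of 142 at 50% coverage (33.6%). At equal peak numbers it was 19 of 81 (21.8%), and without single libraries 40 to 59 differed (29.4% to 37.9%). In MEPs, 25 of 90 differed (21.1%), 21 of 66 at the stricter q (21.6%) and 10 of 93 at 50% coverage (10.7%). At equal peak numbers it was 7 of 39 (15.6%), and without single libraries 20 to 25 differed (14.7% to 20.5%). In CLPs, 13 of 85 differed (9.6%), 7 of 67 at the stricter q (8.63%) and 8 of 96 at 50% coverage (6.96%). At equal peak numbers it was 10 of 73 (10.5%). Without single libraries 7 to 14 differed (4.23% to 9.84%), and each of the 4 CLP libraries left out gave 7 or 8. Without setting libraries to their median, the 2 TSS regions of Cxcr4 and Cd44 both differed in fold enrichment in GMPs (2 called) and in MEPs (2 called, both lower), since the levels of whole libraries then entered. The Cxcr4 TSS difference in GMPs then turned to 0.41 and in MEPs to -0.40. Without single libraries the Cd44 TSS difference ran from -0.016 (without aged GMP replicate 2) to 0.10 in GMPs and from -0.10 to 0.0069 (without aged MEP replicate 1) in MEPs. For fold enrichment, 1 region was called in MEPs and 0 in GMPs whichever single library was left out, and 0 to 1 in CLPs, with 1 without young MEP replicate 2. The counts with age were 0 under every alternative run, the replicate block included, but with 4 HSC libraries per age the exact tests on calls could hardly pass and show no stability. With the replicate number as a block the Cxcr4 TSS difference in MEPs was 0.37. Same-numbered young and aged libraries deviated from their group means with correlations of -0.0976 to 0.24 over 18 pairs (-0.0976 to 0.13 in HSCs), so the numbers were not taken to pair the samples. Of 1764 values of named regions under alternatives, 1696 kept their direction and side of the threshold, 62 no longer passed, 2 newly passed and 4 turned. The lists hold no read counts, so a region without a call cannot be told from one below the calling threshold.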

Other observations

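Among other adhesion genes, the TSS region of Icam2, an intercellular adhesion molecule, was called in 16 libraries and in none of MPP4s, GMPs, MEPs or CLPs. That of Itga2b, the alpha IIb integrin gene, was called in 26 libraries and in no MEP or CLP library. MEP libraries held the fewest peaks (9581 to 11041). The TSS regions of Fn1, Vav1 and Jam2 were also called in no MEP library, while that of Cd47 was called in all 4. Icam2 and Itga2b were singled out after their values were seen.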
